A study of Mus musculus with 6 samples.

Results

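Aminoacyl-tRNA synthetases, the enzymes that join each amino acid to its transfer RNA, were examined as a gene family in mouse embryonic stem cells given the small molecule SC1. Genes were taken as members when an array probe designed on a protein-coding RefSeq transcript carried a synthetase symbol, that is the one-letter code of the amino acid followed by "ars". This gave 37 genes with 46 probes, out of 37074 genes and genomic intervals with 55681 probes. By their symbols 20 encode cytosolic enzymes, and 17, with the suffix 2, encode mitochondrial enzymes. All 37 passed the filter on dim probes, as did 25439 genes and intervals in all. Symbols are those of the GRCm38.p6 RefSeq annotation, in which Aars, Tars and similar names stand for genes now written with the suffix 1, and Tarsl2 for the gene now called Tars3.

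The cells were J1, an embryonic stem cell line of the strain 129S4/SvJae, labelled as derived from the inner cell mass and grown without feeders on gelatin, with serum replacement and leukaemia inhibitory factor (LIF, 1000 U/ml). The tested cells received 1 µM SC1 for 6 h (3 samples). Their controls received DMSO for 6 h (3 samples). SC1, also known as pluripotin, is a synthetic compound described as an inhibitor of ERK1 and RasGAP that supports self-renewal of mouse embryonic stem cells. The treatment note attached to every sample mentions SC1 alone, so the groups were taken from the sample titles, which name DMSO and SC1. Nothing in the labels says that replicates came from separate cultures, so the p-values may reflect technical variation only. One line was used throughout, so the results describe that line only.

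A cell makes proteins only as fast as it can charge its tRNAs, and it keeps separate sets of synthetases for the cytosol and for the mitochondrial matrix. Most mitochondrial enzymes come from nuclear genes of their own, while a few genes, such as Gars and Kars, give both forms. Several cytosolic enzymes sit in a large multi-synthetase complex built on the scaffold proteins Aimp1, Aimp2 and Eef1e1. When amino acids run short or the endoplasmic reticulum is stressed, kinases phosphorylate the initiation factor eIF2, translation of the transcription factor ATF4 rises, and ATF4 is known to switch on many cytosolic synthetase genes along with amino acid transporters and biosynthetic enzymes. The transcription factor MYC is also known to raise genes of protein synthesis, through E-box sequences.

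RNA from each sample was labelled with Cy3 and hybridised to 1 array of 62976 spots, all on 1 slide. The processed signal's 75th percentile was 443 to 493 on the SC1 arrays and 532 to 539 on the DMSO arrays. Signals below are processed intensities after each array was scaled to a common 75th percentile of 498.5 units, so they compare samples for 1 probe but do not rank genes. Differences are SC1 minus DMSO on the log2 scale, tested with limma, with Benjamini-Hochberg adjustment over all 25439 genes and a threshold of 0.05. Since the RNA came from bulk cultures, fewer cells of a type and less RNA per cell cannot be told apart. All 10 stem cell markers were measured, of which 2 rose and 4 fell, with differences from -2.36 to 1.10 on the log2 scale. Their summed signals were 301292 to 318758 in SC1 cells and 318442 to 329656 in DMSO cells. Of 10 fibroblast markers 7 passed the filter (Lum, Postn and Prrx1 did not), of which 4 rose and 1, Thy1, fell, and their sum was 976 to 1015 in SC1 cells and 1199 to 1285 in DMSO cells. The 10 primitive endoderm markers, of which 5 rose and 1 fell, summed to 96727 to 100766 in SC1 cells and 73928 to 77762 in DMSO cells, and the 6 neural markers, of which 2 rose and 3 fell, to 5445 to 5791 in SC1 cells and 4236 to 4299 in DMSO cells. The part of these markers in the results below was not tested.

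Most synthetase genes that rose with SC1 encode cytosolic enzymes, and most that fell encode mitochondrial ones. Of the 37 genes 8 rose, 10 fell and 19 did not pass the test. Cytosolic genes accounted for 7 of the 8 that rose, and mitochondrial genes for 7 of the 10 that fell. The changes were small: the largest increase, of Aars, was 1.36-fold and the largest decrease, of Mars2, was 1.47-fold. These counts stand against a transcriptome in which 38.3% of all genes and intervals tested were called, 18.1% as higher and 20.2% as lower. The synthetases' own shares were 21.6% higher and 27.0% lower, so as a whole the family was close to the protein-coding genes, of which 45.2% were called, 21.2% higher and 24.0% lower. By compartment the shares lay further apart, 35% higher and 15% lower for the cytosolic genes and 5.88% higher and 41.2% lower for the mitochondrial genes. The median difference was 0.058 for the cytosolic genes, -0.13 for the mitochondrial genes and -0.0052 for all genes tested. No test was made of the difference between the compartments, and these shares and medians are descriptions. With each array left out in turn 4 to 8 synthetases rose and 5 to 8 fell, and with arrays scaled to spiked-in control RNAs 0 rose and 1 fell. Calls over all 25439 genes also dropped, to 7782 to 8443 with an array left out. With the spike-in scaling 2288 of all genes rose and 2781 fell.

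**Figure D1:**
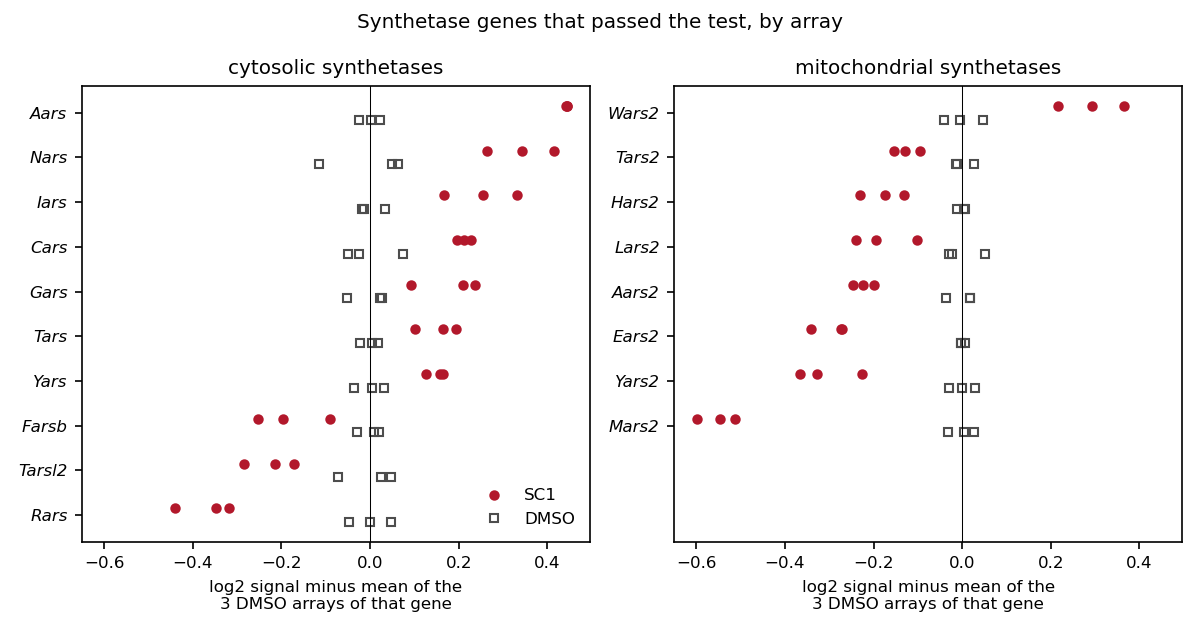
Signal of the 18 synthetase genes that passed the test on each array, as log2 relative to the mean of the 3 DMSO arrays of that gene (SC1, filled circles; DMSO, open squares), with 10 cytosolic genes on the left and 8 mitochondrial genes on the right. The SC1 arrays of 7 cytosolic genes and of Wars2 lie above the DMSO arrays, and those of the others lie below.

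The arrays were also read one by one. Relative to the mean of the DMSO arrays, the median of the 20 cytosolic genes was 0.061, 0.058 and 0.037 on the SC1 arrays, against -0.019, 0.012 and 0.0069 on the DMSO arrays. The median of the 17 mitochondrial genes was -0.095, -0.14 and -0.13 on the SC1 arrays, against -0.0042, 0.0045 and -0.00088 on the DMSO arrays. Each SC1 array thus lay outside the DMSO range in both compartments, upward in the cytosolic and downward in the mitochondrial set. The DMSO arrays set the reference mean, however, so they lie near zero by construction. For all genes tested the medians were -0.0030, -0.014 and -0.0024 on the SC1 arrays, against -0.0040, 0.0037 and 0.0012 on the DMSO arrays. There SC1 replicate 2 also lay outside the DMSO range. The SC1 and DMSO arrays did not overlap for 25 of the 37 genes, where 52.1% of all genes tested did not overlap. Among the cytosolic genes the SC1 arrays lay above in 9, below in 4 and overlapped in 7. Among the mitochondrial genes they lay above in 3, below in 9 and overlapped in 5. No share of all genes was computed by direction, nor for protein-coding genes alone, so these counts are descriptions only. Of all genes and intervals tested 13253 did not overlap and 9751 passed the test, so a lack of overlap was more common than a pass.

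Among the cytosolic enzymes Aars, which charges alanine and removes mischarged serine and glycine, changed most. Its signal was 30149, 30158 and 30146 in SC1 cells, against 21803, 22524 and 22191 in DMSO cells. The 3 SC1 arrays were nearly equal and all lay above every DMSO array, a 1.36-fold difference (log2 difference 0.44, SE 0.0371, adjusted p = 0.000380). Nars, the asparagine enzyme, had signals of 5662, 5388 and 5099 in SC1 cells, against 4399, 3923 and 4441 in DMSO cells. The groups did not overlap for Nars, though each varied more than for Aars (log2 difference 0.34, SE 0.0689, adjusted p = 0.0111). Iars, which charges isoleucine and belongs to the multi-synthetase complex, measured 21881, 19522 and 20761 in SC1 cells, against 17229, 17164 and 17791 in DMSO cells. The lowest SC1 array of Iars still exceeded the highest DMSO array (log2 difference 0.25, SE 0.0543, adjusted p = 0.0141). Cars, the cysteine enzyme, read 29304, 29645 and 28998 in SC1 cells, against 24883, 26658 and 24440 in DMSO cells, and its SC1 arrays varied less than its DMSO arrays (log2 difference 0.21, SE 0.0478, adjusted p = 0.0165).

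The other 3 cytosolic genes that rose did so by less. Gars, which supplies glycyl-tRNA to both cytosol and mitochondria, reached 61597, 66836 and 68062 in SC1 cells, against 55777, 58928 and 58730 in DMSO cells (log2 difference 0.18, SE 0.0548, adjusted p = 0.0458). Tars, the threonine enzyme, gave 21894, 20953 and 22332 in SC1 cells, against 19202, 19776 and 19584 in DMSO cells (log2 difference 0.15, SE 0.0430, adjusted p = 0.0343). Yars, the tyrosine enzyme, had 307, 300.3 and 308 in SC1 cells, against 281, 276 and 268 in DMSO cells (log2 difference 0.15, SE 0.0400, adjusted p = 0.0291). None of these 3 genes overlapped between groups, and each difference was about 1.1-fold. Of 22 alternative settings Gars passed in 9, Tars in 12 and Yars in 11.

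Cytosolic genes that fell were 3. Rars, the arginine enzyme of the multi-synthetase complex, had 760.4, 776 and 714 in SC1 cells, against 968, 937 and 1001 in DMSO cells. Its SC1 arrays were all below its DMSO arrays by a clear margin, 1.29-fold lower (log2 difference -0.37, SE 0.0513, adjusted p = 0.00271), which made it the cytosolic gene with the largest decrease. Tarsl2, a second threonyl-tRNA synthetase gene, measured 1090, 1007 and 1058 in SC1 cells, against 1268, 1249 and 1167 in DMSO cells (log2 difference -0.22, SE 0.0540, adjusted p = 0.0210), and so fell where its paralog Tars rose. Farsb, the beta subunit of the phenylalanine enzyme, read 8426, 7832 and 7529 in SC1 cells, against 9104, 8792 and 9030 in DMSO cells (log2 difference -0.18, SE 0.0541, adjusted p = 0.0430). Its partner subunit Farsa had a difference of -0.039 that did not pass the test (95% interval -0.16 to 0.086). Farsb passed in 9 and Tarsl2 in 14 of the 22 alternative settings.

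The remaining 10 cytosolic genes, Farsa among them, did not pass. Mars1, the methionine enzyme, came nearest on the upper side, at 0.14 (adjusted p = 0.0870), with no overlap between the groups. Kars, which serves lysine in both compartments, came nearest on the lower side. Its signals were 43558, 41527 and 43089 in SC1 cells, against 46941, 47255 and 45607 in DMSO cells (log2 difference -0.13, SE 0.0413, adjusted p = 0.0578), so its SC1 arrays were all below. Dars, Vars, Wars, Lars and Qars had differences of 0.075, 0.063, 0.052, 0.038 and 0.0052, and Sars and Hars of -0.013 and -0.10. For Qars, the glutamine enzyme, the 95% interval was -0.10 to 0.11, and for Dars, the aspartate enzyme, it was wider, -0.14 to 0.29.

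Genes of the multi-synthetase complex were called in both directions. Of its 7 members measured by the rule, Iars rose, Rars fell, and Mars1, Dars, Lars, Qars and Kars did not pass. Its further components were measured as related genes. Eef1e1, a scaffold protein of the complex, read 6152, 5192 and 6030 in SC1 cells, against 6756, 7205 and 6862 in DMSO cells (log2 difference -0.26, SE 0.0759, adjusted p = 0.0373), with every SC1 array below the DMSO arrays. Eprs, the fused glutamate and proline enzyme, whose symbol lies outside the pattern used here, had a difference of 0.064, and the scaffold genes Aimp1 and Aimp2 of 0.030 and -0.15. Those 3 did not pass, and Eef1e1 no longer passed with quantile normalization, spike-in scaling or the slide column as a block. By structural class the counts were near equal: among class I enzymes 4 rose and 5 fell of 18, and among class II enzymes 4 rose and 5 fell of 19.

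Mitochondrial enzymes mostly lay on the lower side. Mars2, which charges the methionine tRNA of the matrix used both to start and to extend proteins, had the largest change of any synthetase. Its signal was 329, 317 and 337 in SC1 cells, against 481, 489 and 469.8 in DMSO cells. The highest SC1 array was well under the lowest DMSO array, 1.47-fold lower in SC1 cells (log2 difference -0.55, SE 0.0431, adjusted p = 0.000301). Ears2, the glutamate enzyme, measured 957, 1004 and 1003 in SC1 cells, against 1210, 1210 and 1218 in DMSO cells. Its DMSO arrays were almost identical and all SC1 arrays lay below them (log2 difference -0.30, SE 0.0403, adjusted p = 0.00250). Yars2, the tyrosine enzyme, read 3283, 2983 and 3063 in SC1 cells, against 3921, 3844 and 3765 in DMSO cells (log2 difference -0.31, SE 0.0508, adjusted p = 0.00525). Aars2, the alanine enzyme, read 2346, 2421 and 2383 in SC1 cells, against 2816, 2816 and 2712 in DMSO cells (log2 difference -0.22, SE 0.0399, adjusted p = 0.00704). Both were separated between the groups on every array.

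A further 3 mitochondrial genes fell by less. Hars2, for histidine, had signals of 1348, 1445 and 1400 in SC1 cells, against 1587, 1588 and 1569 in DMSO cells (log2 difference -0.18, SE 0.0428, adjusted p = 0.0203). Lars2, for leucine, gave 2004, 1941 and 2137 in SC1 cells, against 2259, 2377 and 2247 in DMSO cells (log2 difference -0.18, SE 0.0531, adjusted p = 0.0416). Tars2, for threonine, gave 15956, 15309 and 15573 in SC1 cells, against 17349, 16909 and 16868 in DMSO cells, and stood just inside the threshold (log2 difference -0.13, SE 0.0396, adjusted p = 0.0493). The groups were separated for all 3, and of 22 alternative settings Hars2 passed in 13, Lars2 in 9 and Tars2 in 5. Wars2, the tryptophan enzyme, was the 1 mitochondrial gene that rose. It had 169, 152 and 161 in SC1 cells, against 127, 131 and 135 in DMSO cells, a 1.22-fold difference (log2 difference 0.29, SE 0.0541, adjusted p = 0.00807).

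A further 9 mitochondrial genes did not pass. Sars2, Fars2, Cars2 and Pars2 had differences above zero, of 0.15, 0.079, 0.073 and 0.060. Among them, Sars2 and Pars2 had every SC1 array above the DMSO arrays, with adjusted p = 0.0681 and 0.263. Iars2, Rars2 and Vars2 had differences below zero, of -0.072, -0.12 and -0.20. Of these, Rars2 and Vars2 had every SC1 array below the DMSO arrays, with adjusted p = 0.0776 and 0.0666. Nars2 was barely measured: its probe stood well above background on 1 of 3 SC1 arrays and on 3 of 3 DMSO arrays, so it entered the test through the DMSO arrays, and its 95% interval ran from -1.10 to 0.37.

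The enzymes of each amino acid, set side by side, compared the compartments within pairs. Both compartments had a gene for 15 amino acids, and the cytosolic difference lay above the mitochondrial one in 11 of them, with threonine counted by Tars, or in 10 of 14 without asparagine, whose mitochondrial gene Nars2 was barely measured and turned to 0.28 within the first slide column. Alanine showed the widest contrast among the pairs that passed in both compartments, with Aars at 0.44 and Aars2 at -0.22. Tyrosine was the other amino acid with a rise of its cytosolic gene and a fall of its single mitochondrial gene, Yars at 0.15 and Yars2 at -0.31. For threonine Tars rose while Tars2 and the second cytosolic gene Tarsl2 fell. Methionine combined the fall of Mars2 with 0.14 for Mars1, which did not pass. The opposite order was found for arginine, phenylalanine, serine and tryptophan, where the cytosolic difference lay below the mitochondrial one. In the tryptophan pair Wars2 rose and Wars, at 0.052, did not pass. These orders describe the pairs, and the differences within pairs were not tested.

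**Figure D2:**
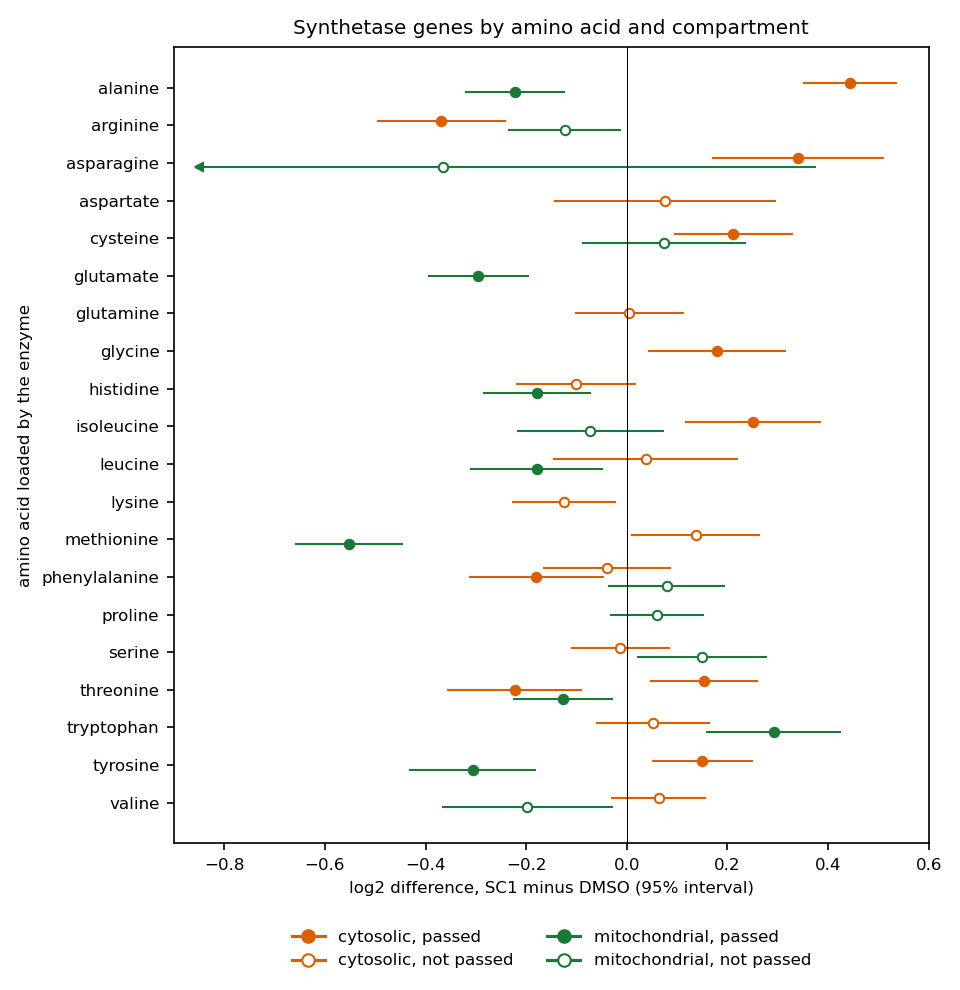
Log2 difference, SC1 minus DMSO, of the synthetase genes named in the text with 95% intervals, by the amino acid loaded, with cytosolic and mitochondrial enzymes in separate colours and filled points for genes that passed the test. An arrow marks an interval that leaves the axis (Nars2). The extremes are Aars at 0.44 and Mars2 at -0.55.

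For 9 genes a second probe gave another reading of the transcript, tested in a fit over all probes. The second probe of Tars2 differed by -0.21 (adjusted p = 0.0136), while its brighter probe missed the threshold in that fit (adjusted p = 0.0603). Both probes of Vars2 gave similar differences, -0.20 and -0.23, and the dimmer one passed (adjusted p = 0.0415). The second probe of Wars2 differed by 0.080 and did not pass (adjusted p = 0.617), at signals of 42.1, 48.3 and 53.5 in SC1 cells, against 40.9, 46.3 and 48.7 in DMSO cells. The second Aars probe was near background, with 13.9, 22.3 and 22.4 in SC1 cells and 8.98, 14.9 and 21.6 in DMSO cells. Its difference of 0.42 was close to the 0.44 of the brighter probe, but with an SE of 0.358 it did not pass (adjusted p = 0.413). The Aars and Wars2 calls therefore rest on the brighter probe of each gene. Second probes of Wars, Cars2, Iars2, Farsa and Pars2 did not pass, as their brighter probes did not.

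Start-site sequence was examined for the motifs of the factors named above, since promoter windows from RefSeq (GRCm38.p6) were at hand for 27 of the 37 genes. Each window spans 300 bases, 250 before the transcription start and 50 after it, and positions are counted from 1 at the start base, with -1 just before it. The CARE core, the C/EBP-ATF response element bound by ATF4 with a C/EBP partner, was searched as TGATGNAA on both strands, and the E-box bound by MYC, MAX and related factors as CACGTG. The windows of the members with the smallest p-values are shown first, with matches in capitals, 5′ to 3′ on the gene's strand: Aars at chr8:111033592-111033891 (plus strand) with both motifs, Mars2 at chr1:55236927-55237226 (plus strand) with neither, and Ears2 at chr7:122067037-122067336 (minus strand) with an E-box.
Aars: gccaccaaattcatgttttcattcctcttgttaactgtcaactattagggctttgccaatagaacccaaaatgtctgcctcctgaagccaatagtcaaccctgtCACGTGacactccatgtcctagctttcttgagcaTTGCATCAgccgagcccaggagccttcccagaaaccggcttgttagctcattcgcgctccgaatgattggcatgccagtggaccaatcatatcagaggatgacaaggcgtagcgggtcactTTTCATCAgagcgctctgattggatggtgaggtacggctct
Mars2: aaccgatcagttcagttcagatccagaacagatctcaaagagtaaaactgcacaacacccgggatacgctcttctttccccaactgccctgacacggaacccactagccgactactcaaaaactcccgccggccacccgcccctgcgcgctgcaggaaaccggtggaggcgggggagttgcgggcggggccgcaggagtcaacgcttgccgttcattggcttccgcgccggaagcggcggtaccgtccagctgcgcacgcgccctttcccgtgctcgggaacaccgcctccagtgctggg
Ears2: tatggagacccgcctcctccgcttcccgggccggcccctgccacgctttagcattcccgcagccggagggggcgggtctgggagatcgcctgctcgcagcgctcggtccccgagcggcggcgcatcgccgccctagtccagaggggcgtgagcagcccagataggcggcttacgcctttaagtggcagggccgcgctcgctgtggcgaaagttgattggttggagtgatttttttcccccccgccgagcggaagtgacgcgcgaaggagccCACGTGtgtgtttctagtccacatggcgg

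The Aars window holds a CARE core at -112 and another at 10, and an E-box at -146. The other 4 synthetase windows with a CARE core are shown around it, 44 bases each with the core in capitals: Gars at chr6:55037953-55037996 (plus strand), Iars at chr13:49682119-49682162 (plus strand), Tars at chr15:11399648-11399691 (minus strand) and Yars at chr4:129189888-129189931 (plus strand). These stretches were picked after the search. The core reads as its reverse complement in Gars, Iars and Tars, and as TGATGCAA in Yars.
Gars: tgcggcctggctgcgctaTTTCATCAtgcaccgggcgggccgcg
Iars: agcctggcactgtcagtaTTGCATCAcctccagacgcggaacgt
Tars: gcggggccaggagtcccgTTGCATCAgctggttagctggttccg
Yars: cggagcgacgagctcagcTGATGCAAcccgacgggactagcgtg

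The CARE core begins at -30 in Gars, 8 in Iars, -15 in Tars and 4 in Yars. All 5 synthetase genes with a CARE core were cytosolic genes that rose, and these were all 5 of the risen cytosolic genes with a window. Nars and Cars, which also rose, had no window and were not searched, nor were Rars and Hars2, which fell. None of the other 22 synthetase genes with a window held one, neither the 2 cytosolic and 6 mitochondrial genes that fell, nor Wars2, nor the 13 that did not pass. Over all 27025 genes with a window the share with a CARE core was 4.51%, and among those tested it was 2.94%. Of the synthetase genes 18.5% held one. E-boxes were spread differently, in 5 synthetase genes, of which Aars, Iars and Tars rose and Farsb and Ears2 fell. This was 18.5% of the synthetase genes, against 8.09% of all genes and 11.1% of those tested, 9.83% of the tested genes that rose and 13.0% of those that fell. A match is a run of letters in a window and shows no binding, and these counts were made after the calls were known. With the slide column as a block, where differences rest on SC1 replicate 1 alone, Aars and Iars kept their calls. Gars, Tars and Yars did not, and with spike-in scaling none of the 5 did.

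**Figure D3:**
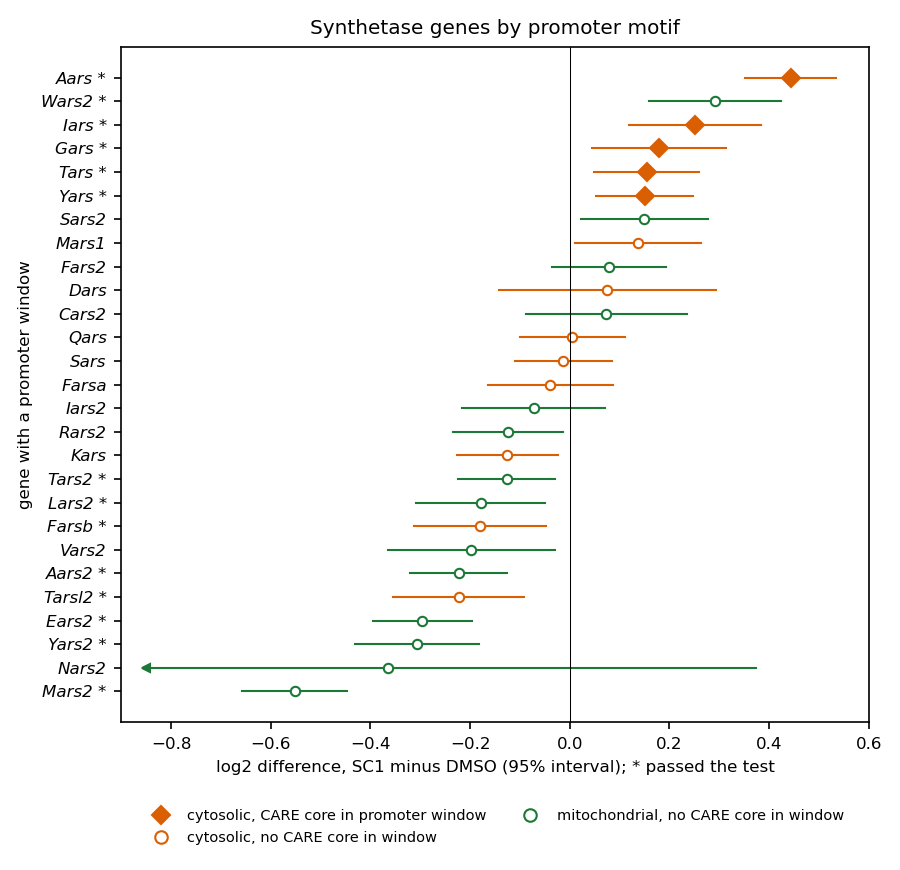
Log2 difference, SC1 minus DMSO, with 95% interval, of the 27 synthetase genes that have a promoter window, ordered by difference, with diamonds for genes whose window holds a CARE core and an asterisk for genes that passed the test. The 5 diamonds are Aars, Iars, Gars, Tars and Yars, all on the positive side.

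Outside the family the shares lay closer together. Among the other tested genes with a window, a CARE core was held by 3.86% of those that rose, 1.83% of those that fell and 3.01% of those that did not pass. Of genes with a CARE core 27.9% rose and 14.8% fell, against 20.8% and 23.9% of genes without one. Within a list of ATF4 targets of amino acid supply the order was the other way: 3 of the 8 genes with a CARE core in the window rose, against 13 of the 19 without. These windows reach only 250 bases upstream and 50 downstream, and some ATF4 sites are known to lie further away.

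The genes around the synthetases were read from lists chosen with earlier results of these data known. Atf4 itself had signals of 101679, 91481 and 101902 in SC1 cells, against 63050, 62650 and 65580 in DMSO cells, so its transcript was 1.54-fold higher in SC1 cells (log2 difference 0.62, SE 0.0575, adjusted p = 0.000561). Of 32 measured ATF4 targets of amino acid supply and stress 19 rose (59.4%), 3 fell (9.38%) and 10 did not pass, beside 18.1% higher and 20.2% lower of all genes tested, with a median difference of 0.24, beside the cytosolic synthetase median of 0.058. Among those with the smallest p-values, Nupr1, a chromatin-associated stress protein, had 12895, 11486 and 11572 in SC1 cells, against 3863, 3902 and 3910 in DMSO cells (1.62 on the log2 scale). Ddit3, which encodes the transcription factor CHOP, differed by 1.22, and Atf3, a repressor induced by stress, by 1.04. Against that direction, the arginine and lysine transporter gene Slc7a3 fell, with 8896, 8494 and 8928 in SC1 cells, against 25525, 25855 and 26349 in DMSO cells (log2 difference -1.56, adjusted p = 1.12e-05). Stc2, a secreted glycoprotein, and Cbs, which starts transsulfuration, were the other 2 that fell, by 0.65 and 0.38 on the log2 scale. Asns and Psat1, enzymes that make asparagine and serine and are often used to read out ATF4, had differences of 0.12 and 0.16 that did not pass (adjusted p = 0.0956 and 0.0740). Stc2, Cbs, Asns and Psat1 were named after their values were seen. With spike-in scaling 9 of the targets rose and 3 fell, beside 2288 higher and 2781 lower of all 25439 genes. Within the first slide column, which holds 1 SC1 array, the median difference of the targets was 0.23.

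Transcripts of genes that act in the step before ATF4 were read next. The step itself, phosphorylation of eIF2 and translation of ATF4, was not measured. Among 17 eIF2 kinases, eIF2 and eIF2B subunits and regulators 2 rose (11.8%) and 3 fell (17.6%), both shares below those of all genes tested, while quantile normalization called 5 higher and 0 lower. Of all 25439 genes that normalization called 5055 higher and 4653 lower. Apart from Atf4, Eif2ak2, the kinase PKR that responds to double-stranded RNA, rose by 0.34. Eif2s1, the eIF2 subunit that is phosphorylated, and Eif2b3, a subunit of its exchange factor, had differences of -0.21 and -0.18 and passed as lower. Myc, in contrast, had the largest difference of the genes named here, with 44.9, 46.4 and 44.4 in SC1 cells, against 1145, 1016 and 1022 in DMSO cells, 23.4-fold lower in SC1 cells (log2 difference -4.55, SE 0.0601, adjusted p = 2.45e-06).

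Further lists of the translation machinery are set against the 18.1% higher and 20.2% lower of all genes tested, and the 21.2% and 24.0% of protein-coding genes. Among 21 mitochondrial translation factors and tRNA processing genes 1 rose (4.76%) and 6 fell (28.6%), with a median of -0.092. Trnt1, which adds the CCA end to tRNAs of both compartments, measured 1988, 1965 and 2167 in SC1 cells, against 2890, 2924 and 3106 in DMSO cells (log2 difference -0.54). Mtres1, an RNA-binding protein of the mitochondrion, differed by -0.51, Trmt10c, a subunit of mitochondrial ribonuclease P, by -0.34, and Gfm2, a factor that recycles mitochondrial ribosomes, by -0.24. All 4 passed as lower. Among 23 genes of RNA polymerase III, which transcribes tRNA genes, 2 rose (8.70%) and 9 fell (39.1%). Polr3g, the subunit form typical of stem cells, had 3732, 3494 and 3890 in SC1 cells, against 4975, 4705 and 4849 in DMSO cells (log2 difference -0.39). Polr3d and the initiation factor gene Gtf3c4 also fell, with -0.49 and -0.38, and Polr3c, another subunit, rose by 0.33.

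Among 35 cytosolic translation factors 2 rose (5.71%) and 9 fell (25.7%), the second near the share of protein-coding genes, with a median of -0.072, while quantile normalization called 4 higher and 5 lower. Of all 25439 genes that normalization called 5055 higher and 4653 lower. Eif4e, which binds the mRNA cap, had 5249, 5372 and 5320 in SC1 cells, against 6725, 6552 and 6594 in DMSO cells (log2 difference -0.32). Eif4a2, an RNA helicase, and Eif3d, a subunit of the eIF3 complex, had -0.37 and -0.30 and passed as lower. Eif1, which guards start codon choice, rose by 0.33. Of 10 genes for proofreading and for indirect routes to charged tRNA none rose and 3 fell. Dtd1, which removes D-amino acids from tRNA, had 4230, 4175 and 4223 in SC1 cells, against 5105, 5391 and 5430 in DMSO cells (log2 difference -0.33). Pstk, a kinase on the route to selenocysteine, and Gatc, a subunit of the amidotransferase that makes mitochondrial glutaminyl-tRNA, passed as lower with -0.30 and -0.19. Mtfmt, Aarsd1, Sepsecs, Prorsd1, Gatb, Qrsl1 and Dtd2 had differences between -0.16 and 0.14 and did not pass. With spike-in scaling 0 of the cytosolic factors and 0 of these 10 genes passed, and 2 mitochondrial factors and 3 genes of RNA polymerase III fell. That scaling called 2288 of all 25439 genes higher and 2781 lower. With the slide column as a block 0 mitochondrial factors rose and 2 fell, and 1 gene of RNA polymerase III rose and 3 fell. Of the cytosolic factors 1 rose and 5 fell there, and of these 10 genes 0 rose and 2 fell. In that setting 2689 of all 25439 genes rose and 2855 fell, and Trmt10c and Gfm2 did not pass.

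**Figure D4:**
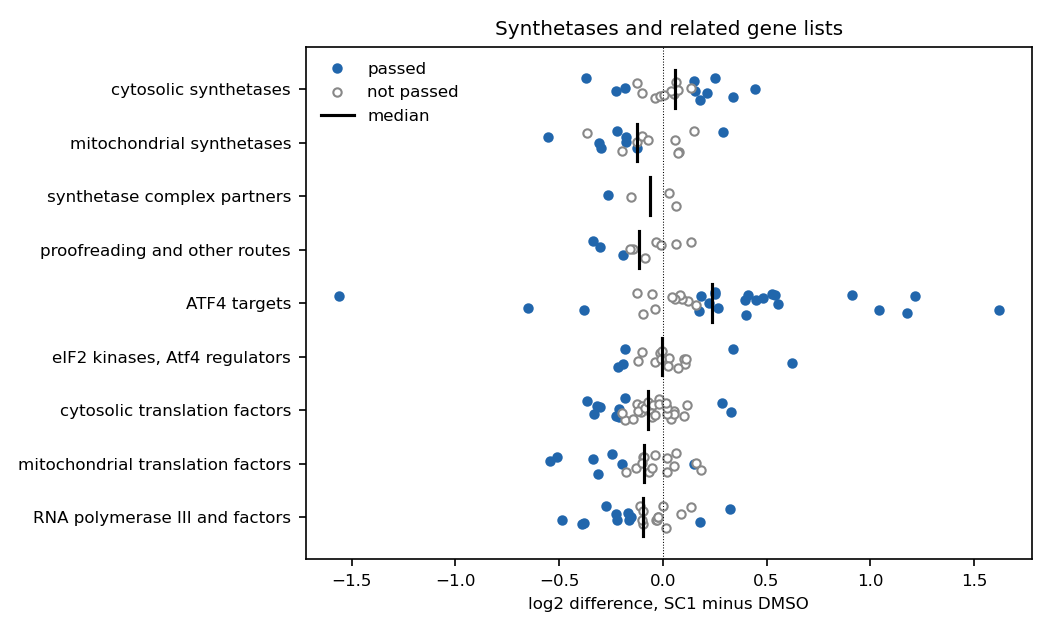
Log2 difference, SC1 minus DMSO, of each gene in the synthetase sets and in the related lists, with filled points for genes that passed the test and a bar at the median of each list. The ATF4 targets have a median of 0.24, the cytosolic synthetases 0.058 and the mitochondrial synthetases -0.13.

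Slide position and scaling limited these calls. The first column of the slide held SC1 replicate 1 and all 3 DMSO arrays, and the second column held SC1 replicates 2 and 3. Since the second column held no DMSO array, differences with the column as a block rest on SC1 replicate 1 alone. They equal those within the first column, so the block is not a separate check of them. Within the first column 3 synthetases rose (Aars 0.44, Iars 0.33 and Wars2 0.37) and 3 fell (Rars -0.35, Ears2 -0.34 and Mars2 -0.55), with 1 SC1 array assumed to vary like the others. With the column as a block 4 rose and 4 fell, adding Nars and Aars2. When arrays were scaled to the spiked-in control RNAs in place of the 75th percentile, 17 of the 18 calls were lost and only Mars2 kept its call (-0.59, adjusted p = 0.00365). That scaling moved every synthetase difference down by the same amount, so rises became smaller and falls larger. Large differences thus stayed of similar size, such as 0.40 for Aars (adjusted p = 0.0553), 0.30 for Nars, -0.41 for Rars (adjusted p = 0.0511) and -0.34 for Ears2. Small rises lost more of their size, such as Tars, from 0.15 to 0.11. The spiked-in controls of SC1 replicate 2 stood higher, at 4.38 above its 75th percentile on the log2 scale, against 4.05 and 4.12 on the other SC1 arrays and 4.08 to 4.18 on the DMSO arrays. Quantile normalization called 13 synthetases higher and 7 lower, and normexp background correction with the 75th percentile 6 higher and 12 lower, beside 8 and 10 in the setting used. Calls over all 25439 genes moved too. They were 5055 higher and 4653 lower with quantile normalization, and 6982 and 5059 with normexp and the 75th percentile. In the setting used they were 4612 and 5139. Under each of the settings tried, the cytosolic median stayed above zero and the mitochondrial median below it. Settings also moved the median of all genes, however. With normexp and the 75th percentile the cytosolic median, 0.018, lay below that of all genes tested, 0.042. In simulated data with 200 changed genes among 25439, 33 of 50 changed 1.5-fold and 10 of 50 changed 1.25-fold were recovered. The real data had 9751 calls, and the Benjamini-Hochberg cutoff depends on that number, so these rates do not carry over. Every synthetase difference was below 1.5-fold.

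**Figure D5:**
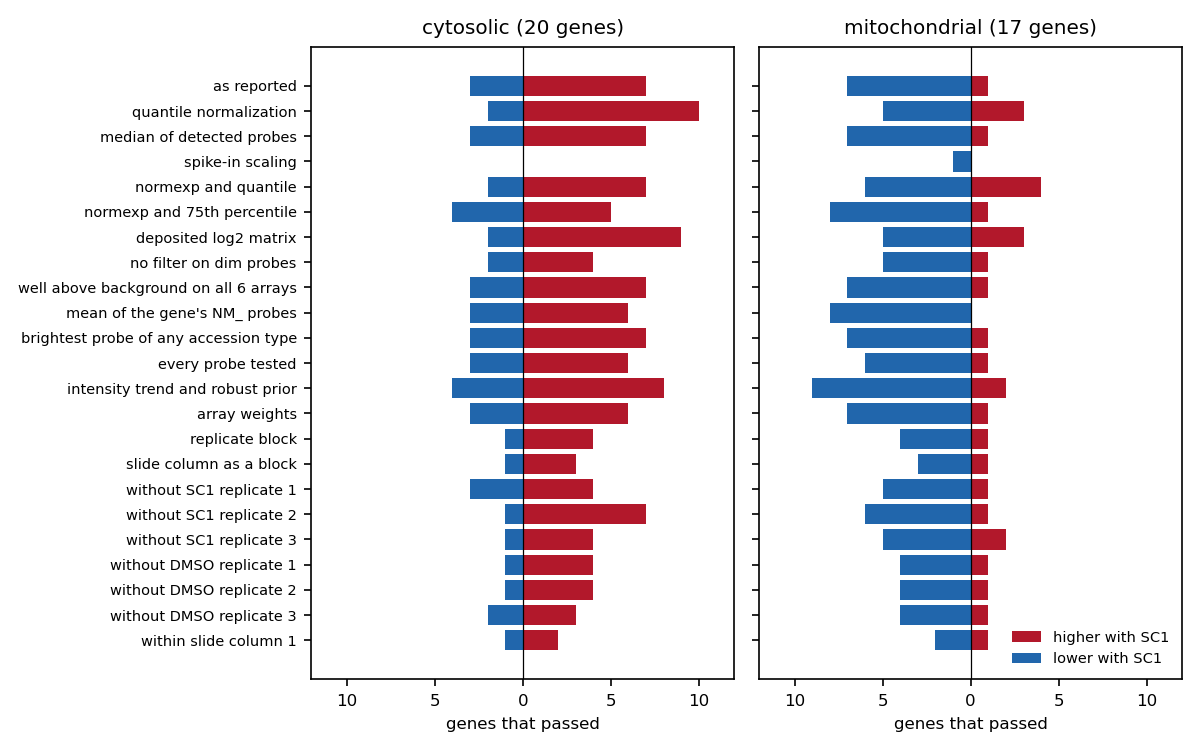
Number of cytosolic (left) and mitochondrial (right) synthetase genes that passed the test as higher (bars to the right of 0) or lower (bars to the left) with SC1 under each processing setting. The top row has 7 higher and 3 lower cytosolic genes and 1 higher and 7 lower mitochondrial genes, and spike-in scaling leaves 1 mitochondrial gene.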

How the data were processed

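Total RNA of 6 samples (3 SC1, 3 DMSO) was measured on single-colour Cy3 arrays, 1 per sample, and per the submitters' processing notes the spots were quantified with Agilent Feature Extraction 10.7. Per the file headers, the deposited files hold for each spot a processed intensity, corrected for background, the median spot and median background intensity, and flags for spots above background, saturated or outlying. A deposited matrix of log2 values came with the arrays; its normalization is not stated, and it differed from quantile-normalized log2 signals by at most 0.133 over the synthetase probes. The array design carries mm9 intervals, whose coordinates were not used.

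Control spots were left out, which left 59305 spots for 55681 probes, and none was saturated. Outlier spots (137 to 201 per array) were then left out on the array that flagged them. The log2 processed signal minus each array's 75th percentile was averaged over spots of a probe. A probe was kept if every array of the SC1 or of the DMSO group had it well above background (35321 probes). RefSeq accessions named 27235 probes. A gene was represented by its brightest probe on a protein-coding transcript accession, or otherwise by its brightest probe, giving 25439 tests. limma 3.58.1 in R 4.3.3 (lmFit, eBayes) compared SC1 with DMSO, two-sided, with Benjamini-Hochberg adjustment over all genes. Motifs and figures used Python 3.11.15 with pandas 2.3.3 and matplotlib 3.10.9. The fit was tested on simulated data in which 200 genes changed, and 8 unchanged genes were called. The number of arrays limits the precision, and an exact permutation test of 3 against 3 cannot go below p = 0.1, so the across-gene model was used.

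The synthetases are named, except 1 that is not reported here; of each related list up to 4 passing genes with the smallest p, every gene of lists of up to 10, and Atf4 and Myc. Cytosolic and mitochondrial sets follow the symbols, with Tarsl2 counted as cytosolic. The members and lists were chosen with earlier results of these data known. Alternatives covered scaling, background correction, the deposited matrix, the filter, the choice of probe, the variance prior, array weights, the slide column, the replicate number as a block, a stricter threshold and each array left out.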

Additional observations from a re-analysis of the deposited data

How the results depend on the processing

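Counts below are genes past the threshold, beside 9751 genes in all, 8 synthetases higher and 10 lower, 7 cytosolic higher and 3 lower, 1 mitochondrial higher and 7 lower, and medians of 0.058 (cytosolic) and -0.13 (mitochondrial). At an adjusted p under 0.01, 5791 genes passed, with 2 synthetases higher and 5 lower, 1 cytosolic higher and 1 lower, and 4 mitochondrial lower, as a stricter threshold must leave fewer. Spike-in scaling called 5069 genes, 0 synthetases higher and 1 lower, 0 cytosolic genes in either direction, and 0 mitochondrial higher and 1 lower, with medians of 0.018 and -0.17; limma there gave an unadjusted p under 0.05 for 6 synthetases, 2 of them cytosolic. The slide column as a block called 5544 genes, 4 synthetases higher and 4 lower, 3 cytosolic higher and 1 lower, and 3 mitochondrial lower, with a mitochondrial median of -0.095. Within slide column 1, an alternative chosen after seeing the data, which has 4 arrays, 4896 genes passed, 3 synthetases higher and 3 lower, 2 cytosolic higher and 1 lower, and 2 mitochondrial lower, with the same mitochondrial median, -0.095. Replicate numbers did not pair the samples (correlations of same-numbered samples' deviations were -0.013, -0.037 and -0.015), and the replicate block called 5 synthetases higher and 5 lower, 4 cytosolic higher and 1 lower, and 4 mitochondrial lower. Quantile normalization gave medians of 0.13 and -0.062, 13 synthetases higher and 3 mitochondrial higher, and the deposited matrix gave 0.13 and -0.061 and 3 mitochondrial higher. Of all 25439 genes, quantile normalization called 5055 higher and 4653 lower, and the deposited matrix 5016 and 4640. Normexp with quantile normalization gave 0.11 and -0.042 and 4 mitochondrial higher, and turned the direction of Tars2, at 0.0025 (adjusted p = 0.974). Normexp with the 75th percentile gave a cytosolic median of 0.018, below the 0.042 of all genes tested. Without the filter 5 synthetases were higher, 4 of them cytosolic. The mean of a gene's probes ended the calls of Aars (0.43, adjusted p = 0.117) and Wars2 (0.19), whose second probes are dim, with 0 mitochondrial genes higher and a mitochondrial median of -0.17, and an intensity trend gave 2 mitochondrial higher. Leaving out each array in turn gave 7782 to 8443 genes, 4 to 8 synthetases higher and 5 to 8 lower, 3 to 7 cytosolic higher and 1 to 3 lower, 1 to 2 mitochondrial higher and 4 to 6 lower, and medians of 0.045 to 0.069 and -0.15 to -0.12. The fewest cytosolic higher calls, 3, came without DMSO replicate 3; leaving out SC1 replicate 1, SC1 replicate 3, DMSO replicate 1 or DMSO replicate 2 left 4. Cytosolic lower calls were 1 without SC1 replicate 2, SC1 replicate 3, DMSO replicate 1 or DMSO replicate 2, and mitochondrial lower calls were 4 without any 1 DMSO array. Of the 22 alternatives that refit the data, Mars2 passed in 22, Ears2, Iars and Rars in 21, Aars, Aars2, Nars and Wars2 in 20, Yars2 in 19, and Cars in 16, while Tarsl2, Hars2, Tars and Yars passed in 11 to 14, Farsb, Gars and Lars2 in 9 and Tars2 in 5. The 22 alternatives are not independent checks. Allowing probes of any accession type changed the probe of 0 synthetases, so that setting could hardly change their calls. The column block and the first slide column share the same differences. Where neither the setting's construction nor fewer arrays explains a change, the cause was not tested.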
